A study of Mus musculus with 9 samples.

Results

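Homeobox genes encode transcription factors that bind DNA through a homeodomain. This account covers 45 of them that lie outside the Hox clusters, picked by gene symbol from a table of 22013 entries, and all 45 symbols were found there. Expression was measured by RNA sequencing in 9 libraries of untreated primary cells from mouse spinal meninges, labelled as fibroblasts, with 3 libraries from each of the segments L, T and C. The letters are not spelled out in the labels, and no label used here gives strain, age or a culture step. Whether replicates came from separate animals is not stated either, so each p-value reflects the spread between libraries, which may be technical.

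Hox genes sit in clusters and are switched on in an order that follows the body axis. The dispersed homeobox genes described here have no such common order. Many of them pattern one region or tissue of the embryo, such as the ventral neural tube (Nkx6), the midbrain and hindbrain boundary (En1), the dorsal limb (Lmx1b) or the skeleton of the face and skull (Msx, Dlx, Alx, Prrx). They bind short DNA sites, for many of them with the core TAATTA, while others such as Tgif1 bind different sites. Several act together with partner proteins such as Eya or the LIM-only factors.

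Libraries held 15652558 to 25204309 estimated counts. T replicates 1 and 2 lay farthest apart of the 9 within-segment pairs (chi-square of 20.4 per degree of freedom, against 3.77 for the closest pair), so calls that end without one library are named below. Fibroblast markers summed to 17950 to 18370 TPM (a level scaled for gene length and library size) in L, 15109 to 15931 TPM in T and 15321 to 15822 TPM in C, with all 15 markers above 1 TPM somewhere. The fibroblast sum hides changes in both directions. Thy1 averaged 232, 156 and 871 TPM in L, T and C, while Pdgfra averaged 7.09, 23.3 and 3.54 TPM. By the edgeR test, T exceeded C for 7 of the 15 markers and fell under C for 7. L exceeded C for 6 and fell under C for 5. L exceeded T for 8 and fell under T for 4. Other cell types left smaller sums that differed between segments. Schwann and glial markers, 11 of 12 of which reached 1 TPM in some library, summed to 161 to 166 TPM in L, 197 to 206 TPM in T and 329 to 338 TPM in C. Neuronal markers summed to 71.4 to 73.8 TPM in L, 52.1 to 60.4 TPM in T and 257 to 267 TPM in C, although 6 of the 10, among them Rbfox3, Snap25 and Syt1, stayed below 1 TPM in all 9 libraries. Chondrocyte and bone markers summed to 32.7 to 36.9 TPM in L, 38.2 to 40.7 TPM in T and 48.1 to 49.4 TPM in C. Of the 10, 5 stayed below 1 TPM, with Ibsp at 0. Their sum hides opposite changes. Col2a1 averaged 9.84 TPM in L, 7.90 TPM in T and 28.1 TPM in C, while Sox9 averaged 3.11, 6.04 and 3.91 TPM. Against C, the edgeR test placed T above for 3 of the 5 tested markers and below for 1. It placed L above C for 0 and below for 2. Macrophage markers, 1 of 8 of which (Ptprc) stayed below 1 TPM, summed to 17.7 to 22.8 TPM in L, 46.5 to 53.1 TPM in T and 36.5 to 42.9 TPM in C. In bulk RNA, fewer cells of a type and less RNA per cell cannot be told apart.

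Of the 45 genes, 21 passed the filter (TPM of 1 or more in 3 or more libraries) and were tested. The remaining 24 stayed at a mean of 0.656 TPM or less in every segment, and 5 of them (Dlx6, Irx4, Isl1, Barx1 and Barx2) had 0 counts in all 9 libraries, which allows up to 3 counts per segment. Levels among the tested genes spanned a wide range. Prrx2, Cux1 and Prrx1, the highest, lay above 88.6% to 95.2% of all tested genes in each segment. Msx2 and Tgif1 followed, and 14 of the tested genes averaged under 10 TPM in all 3 segments.

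Regulatory sequence upstream of the start was available from RefSeq (build GRCm38.p6) for 30 of the 45 genes. For 4 genes the window of 250 bases is shown, chosen as one gene highest in L, one highest in T, one highest in C and one that was also high in C but lowest in T. Capitals mark the homeodomain core TAATTA, the box known as CCAAT, the GC box GGGCGG, the promoter element TATAAA and the Tgif and Meis core TGACAG, each searched on both strands. The windows are chr2:33641099-33641348 on the minus strand for Lmx1b, chr12:37108290-37108539 on the plus strand for Meox2, chr1:120602237-120602486 on the plus strand for En1 and chr13:53472781-53473030 on the minus strand for Msx2.
Lmx1b: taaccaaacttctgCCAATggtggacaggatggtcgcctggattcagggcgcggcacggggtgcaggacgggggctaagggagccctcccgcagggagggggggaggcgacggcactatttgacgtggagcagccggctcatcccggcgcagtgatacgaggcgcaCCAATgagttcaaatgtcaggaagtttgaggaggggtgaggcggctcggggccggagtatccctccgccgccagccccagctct
Meox2: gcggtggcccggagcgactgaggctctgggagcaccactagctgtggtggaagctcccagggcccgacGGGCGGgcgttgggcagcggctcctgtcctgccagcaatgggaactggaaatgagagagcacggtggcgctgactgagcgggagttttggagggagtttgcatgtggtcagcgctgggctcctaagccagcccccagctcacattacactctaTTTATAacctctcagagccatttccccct
En1: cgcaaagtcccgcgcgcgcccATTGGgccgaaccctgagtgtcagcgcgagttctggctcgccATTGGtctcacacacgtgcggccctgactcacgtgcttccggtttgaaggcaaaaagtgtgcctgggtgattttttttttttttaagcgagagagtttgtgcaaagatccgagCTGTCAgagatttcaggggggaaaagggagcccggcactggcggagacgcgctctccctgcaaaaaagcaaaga
Msx2: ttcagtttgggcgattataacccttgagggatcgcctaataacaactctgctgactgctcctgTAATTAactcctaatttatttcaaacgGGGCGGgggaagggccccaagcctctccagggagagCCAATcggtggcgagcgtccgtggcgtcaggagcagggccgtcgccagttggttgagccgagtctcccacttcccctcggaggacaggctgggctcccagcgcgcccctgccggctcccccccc
The Lmx1b window held 2 matches to CCAAT. Meox2 had 1 match to the GC box and 1 to the TATAAA element. En1 had 2 matches to CCAAT and 1 to the Tgif and Meis core. Msx2 had 1 match each to the homeodomain core, the CCAAT box and the GC box. Over 32851 windows of the same length, the homeodomain core was found in 4.84%, the CCAAT box in 33.8%, the GC box in 32.7%, the TATAAA element in 12.4% and the Tgif and Meis core in 15.9%. Among the 38 windows of these homeobox genes, 2 held the homeodomain core, 16 the CCAAT box, 21 the GC box, 2 the TATAAA element and 4 the Tgif and Meis core. A match describes the letters and does not show that a factor binds there.

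Most of the 21 tested genes differed between C and the other segments. In T against C, 6 were higher and 11 lower by the edgeR test (17 called, 81.0% of those tested, beside 51.0% of all 12553 tested genes, 25.8% higher and 25.2% lower). In L against C, 6 were higher and 12 lower (85.7% called, beside 49.6% of all genes, 24.4% higher and 25.2% lower). In L against T, 4 were higher and 3 lower (33.3% called, beside 16.1% of all genes, 7.88% higher and 8.21% lower). Segment values did not overlap for 18 of the 21 in T against C, 18 in L against C and 9 in L against T, beside 58.1%, 58.6% and 28.2% of all genes. The median log2 fold change of the tested genes was -0.85 for T over C, -0.63 for L over C and -0.01 for L over T, beside 0.02, 0.01 and -0.00 for all genes. Both comparisons with C share the C libraries, and Nkx6-2 passed the filter through C alone, so these counts describe the genes that passed and are not independent of one another. An F test over the 3 segments called 20 of the 21, beside 55.9% of all genes, and Six4 was not called.

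**Figure D1:**
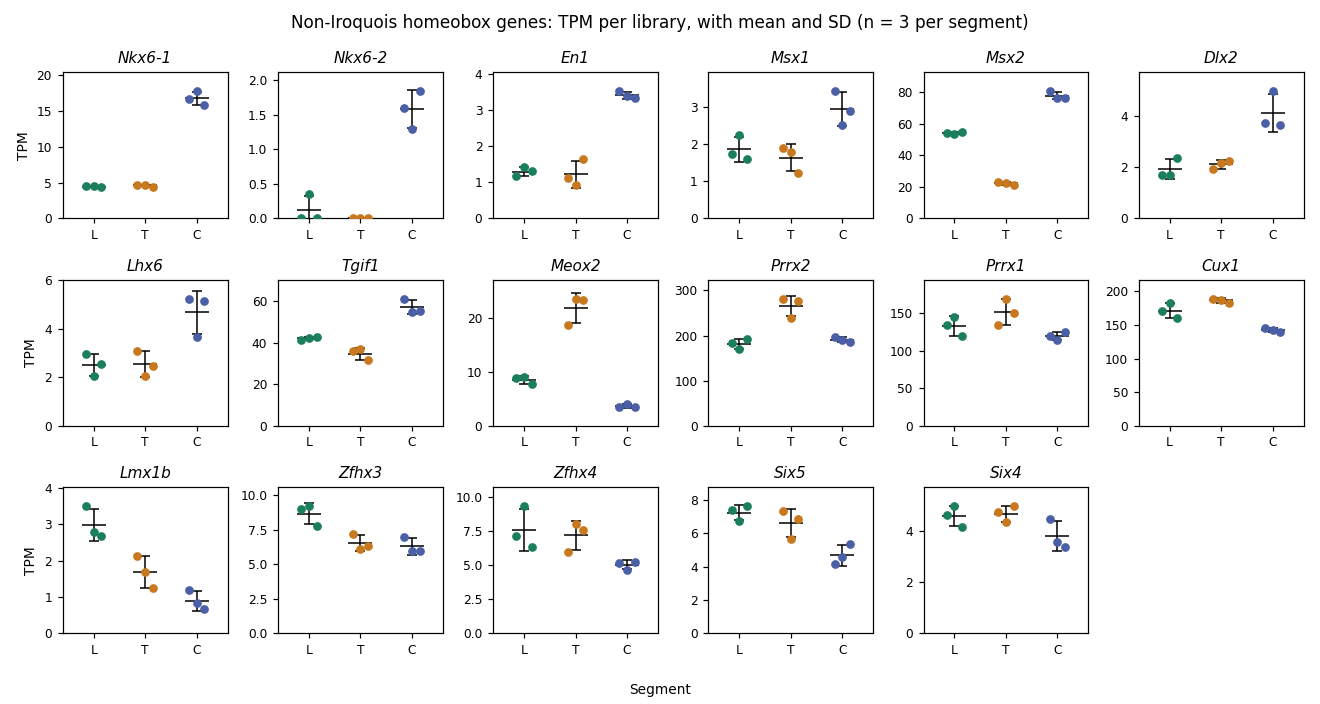
TPM in each of the 9 libraries for 17 tested homeobox genes (points, with mean and SD of 3 libraries as bars), by segment L, T and C, each panel with its own axis from 0. Nkx6-1, En1 and Nkx6-2 sit highest in C, Meox2 sits highest in T with a mean of 21.9 TPM, and Lmx1b sits highest in L with a mean of 2.99 TPM.

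**Figure D2:**
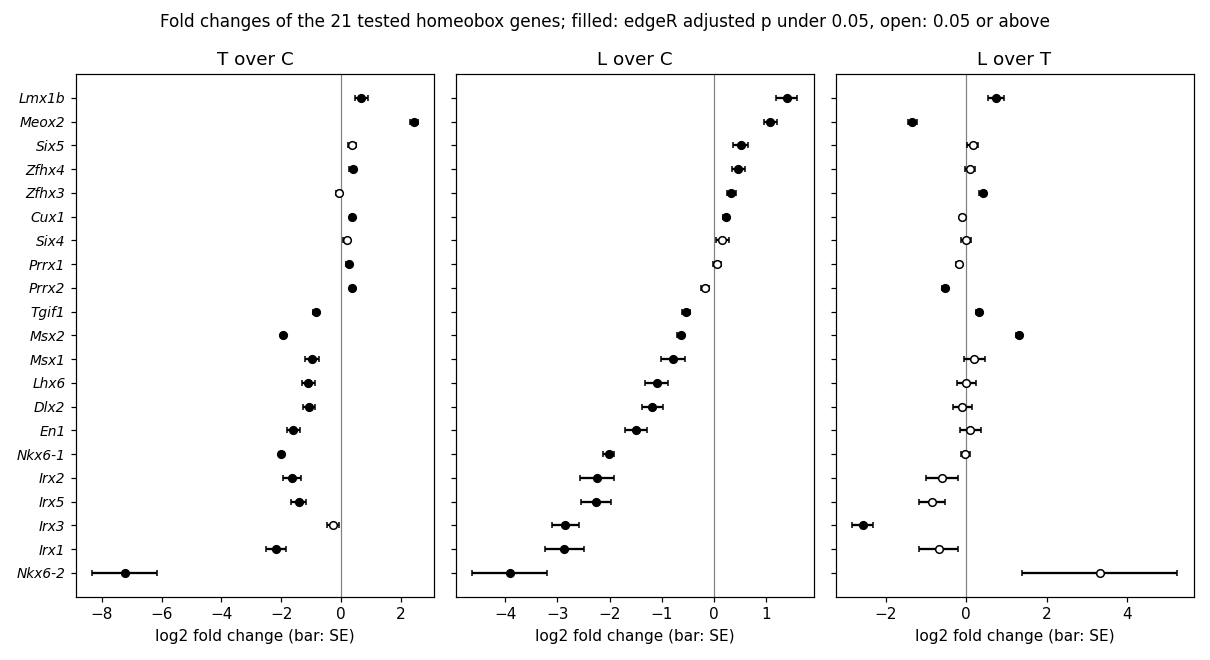
Log2 fold change with its SE for the 21 tested homeobox genes, for T over C, L over C and L over T, ordered by L over C, each panel with its own scale. Filled points mark the 17, 18 and 7 calls of the edgeR test, and Nkx6-2 over C in T is a fit against 0 counts.

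The Nkx6 and En genes, known for patterning the neural tube, were highest in C. Nkx6-1, which specifies ventral neural progenitors and pancreatic beta cells, had 4.51, 4.48 and 4.33 TPM in L, 4.68, 4.64 and 4.43 TPM in T, and 16.6, 17.8 and 15.9 TPM in C. Values in C lay above all 6 others, while those in L and T overlapped. It was 3.99-fold lower in T than in C (log2 -1.99, SE 0.10, edgeR adjusted p = 1.41e-09) and 4.05-fold lower in L than in C (log2 -2.02, SE 0.10, edgeR adjusted p = 2.16e-09). For L over T the log2 change was -0.02 (SE 0.11, edgeR adjusted p = 0.935). Its paralog Nkx6-2, which acts in neural progenitors and myelinating oligodendrocytes, was listed at 0, 0.357 and 0 TPM in L, at 0 in all 3 T libraries, and at 1.60, 1.29 and 1.84 TPM in C. With 0 counts in T against 62 in C, it was at least 18.9-fold lower in T (edgeR adjusted p = 0.000169). L held 3 counts, all in L replicate 2, so that C exceeded L by a ratio of 16.8 (95% counting interval 5.50 to 83.9, edgeR adjusted p = 0.00088).

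En1, a repressor that maintains the midbrain and hindbrain boundary and also marks a lineage of dermal fibroblasts, had 1.17, 1.41 and 1.31 TPM in L, 1.12, 0.909 and 1.64 TPM in T, and 3.52, 3.38 and 3.34 TPM in C. The lowest C library held more than the highest of the other 6. The fold change was 3.03 lower in T than in C (log2 -1.60, SE 0.22, edgeR adjusted p = 3.31e-05) and 2.82 lower in L than in C (log2 -1.50, SE 0.22, edgeR adjusted p = 7.22e-05). On log2(TPM + 1), a scale that understates changes of low genes, T over C was -1.002. En2 stayed below the filter, with 1 count in L, 0 in T and 8 in C. Schwann and glial markers did not all follow the order of these genes. Of 11 tested, 9 were lower and 2 (Gfap and S100b) higher in T than in C, 10 were lower and 1 (S100b) higher in L than in C, and 8 were higher and 2 lower in L than in T. Gfap averaged 15.9 TPM in L, 106 TPM in T and 75.2 TPM in C, while Sox10 averaged 7.25 TPM in L, 2.13 TPM in T and 16.5 TPM in C. Of the neuronal markers, Stmn2 averaged 22.2 TPM in L, 13.5 TPM in T and 162 TPM in C. Tubb3 was also highest in C, at 18.3, 8.34 and 70.1 TPM in L, T and C. Nefm and Map2 were not, at 9.54, 10.5 and 7.08 TPM and at 22.1, 23.25 and 22.4 TPM. Against C, the edgeR test placed T below for 3 of the 4 tested neuronal markers and above for 1. Nefm and Map2 both had a higher mean TPM in T than in C, so for at least 1 of them the call on counts ran against the TPM. It placed L below C for 2 and called no change for the other 2. Olig2, which marks the oligodendrocyte lineage, averaged 0.0323 TPM in L, 0.262 TPM in T and 1.75 TPM in C. The part of these markers in the levels of the Nkx6 and En genes was not tested.

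Msx1, Msx2 and Dlx2, known as targets of BMP signalling in the head and limb, were also highest in C. Msx2, which controls growth of the skull bones, had 54.1, 53.7 and 54.7 TPM in L, 23.2, 22.4 and 20.95 TPM in T, and 80.8, 76.6 and 76.7 TPM in C. The 3 segments did not overlap, and T was lowest. Msx2 was 3.84-fold lower in T than in C (log2 -1.94, SE 0.07, edgeR adjusted p = 9.25e-11), 1.55-fold lower in L than in C (log2 -0.63, SE 0.07, edgeR adjusted p = 5.2e-06) and higher in L by 2.48-fold relative to T (log2 1.31, SE 0.07, edgeR adjusted p = 3.83e-08). Msx1, its paralog in tooth and palate development, averaged 1.85 ± 0.342 TPM in L, 1.62 ± 0.365 TPM in T and 2.94 ± 0.458 TPM in C (SD, n = 3 each). It was 1.98-fold lower in T than in C (edgeR adjusted p = 0.00361). For L against C it was 1.72-fold lower (edgeR adjusted p = 0.015), a call that ended without L replicate 1, L replicate 3 or C replicate 1 (edgeR adjusted p = 0.05, 0.0599 and 0.065, range 0.00645 to 0.065 over 19 alternatives).

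Dlx2, which acts in the branchial arches and in forebrain interneurons, averaged 1.93 ± 0.392 TPM in L, 2.11 ± 0.166 TPM in T and 4.12 ± 0.741 TPM in C (SD, n = 3 each). It was 2.11-fold lower in T than in C and 2.26-fold lower in L than in C (edgeR adjusted p = 0.000556 and 0.000379). Its neighbour Dlx1, with no protein-coding gene between them in the RefSeq order, was below the filter with 13 counts in L, 10 in T and 56 in C. Dlx3 had 2, 1 and 18 counts and Dlx5 13, 22 and 18 counts in L, T and C. Dlx4 had 1, 2 and 0 counts, and Dlx6 had none.

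Lhx6 and Tgif1 shared the direction of those genes. Lhx6, a LIM homeobox gene of the jaw mesenchyme and of cortical interneurons, averaged 2.52 ± 0.449 TPM in L, 2.54 ± 0.524 TPM in T and 4.69 ± 0.891 TPM in C (SD, n = 3 each). Against C it was 2.14-fold lower in T and 2.14-fold lower in L (edgeR adjusted p = 0.000923 and 0.00114). Tgif1, a corepressor that binds Smad proteins and limits TGF-beta signalling, had 41.6, 42.4 and 42.8 TPM in L, 35.9, 37.0 and 31.6 TPM in T, and 61.3, 55.0 and 55.5 TPM in C. No 2 segments overlapped. Its change was 1.80-fold lower in T than in C (log2 -0.85, SE 0.08, edgeR adjusted p = 9.42e-07) and 1.45-fold lower in L than in C (log2 -0.54, SE 0.08, edgeR adjusted p = 7.46e-05). Between L and T the change was 1.24-fold, higher in L (edgeR adjusted p = 0.0169), and leaving out T replicate 3 ended that call (edgeR adjusted p = 0.0987, range 0.00844 to 0.0987 over 19 alternatives). The sum of mural and muscle markers had the same order as Msx2 and Tgif1, at 6900 to 7564 TPM in L, 4625 to 5198 TPM in T and 8507 to 8678 TPM in C. Of the 12, 4 (Kcnj8, Myod1, Myog and Myf5) stayed below 1 TPM. Acta2 made up most of the sum, at 6851, 4743 and 7784 TPM in L, T and C. Of 8 tested, 7 were lower in T than in C, 5 lower in L than in C and 7 higher in L than in T. In each contrast 0 were called the other way. The sum of endothelial markers had that order too, at 59.0 to 63.0 TPM in L, 48.7 to 49.5 TPM in T and 105 to 117 TPM in C. Of the 8, 3 (Pecam1, Tie1 and Cldn5) stayed below 1 TPM, with Cldn5 at 0. Cdh5 made up most of that sum, at 54.1, 43.1 and 83.6 TPM in L, T and C. Tek ran otherwise, at 4.45, 4.33 and 2.13 TPM. Of 5 tested, 4 were lower and 1 higher against C, both in T and in L. In L against T, 2 were higher and 0 lower. The part of either list was not tested.

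Irx1, Irx2, Irx3 and Irx5 were lower in L than in C, and all but Irx3 were lower in T than in C. Iroquois factors are homeobox genes of neural, heart and limb patterning that lie in a pair of clusters. In RefSeq order Irx1, Irx2 and Irx4 follow one another on chromosome 13, and Irx3, Irx5 and Irx6 on chromosome 8, with no protein-coding gene between them. Irx3 had 0.849, 0.337 and 0.758 TPM in L, 4.74, 3.34 and 4.07 TPM in T, and 4.23, 4.41 and 4.76 TPM in C. L stood apart from all 6 other libraries, while T and C overlapped. It was 5.97-fold lower in L than in T (log2 -2.58, SE 0.26, edgeR adjusted p = 1.1e-05) and 7.21-fold lower in L than in C (log2 -2.85, SE 0.26, edgeR adjusted p = 8.33e-07), while T over C gave a log2 change of -0.27 (SE 0.19, edgeR adjusted p = 0.252). On log2(TPM + 1) the change of Irx3 was -1.62 for L over T and -1.74 for L over C.

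Irx5, the neighbour of Irx3, had 0.952, 1.45 and 0.400 TPM in L, 1.66, 1.41 and 1.91 TPM in T, and 4.05, 3.96 and 4.16 TPM in C. Here C stood apart and L and T overlapped. Irx5 was 2.67-fold lower in T than in C (log2 -1.42, SE 0.25, edgeR adjusted p = 0.000414) and 4.81-fold lower in L than in C (log2 -2.27, SE 0.29, edgeR adjusted p = 2.17e-05), or -1.42 for L over C on log2(TPM + 1). For L over T its log2 change of -0.85 (SE 0.33) did not pass (edgeR adjusted p = 0.108), and it passed without L replicate 2 (log2 -1.29, edgeR adjusted p = 0.0223, range 0.0223 to 0.338 over 19 alternatives). The difference between Irx3 and Irx5 in their change from one segment to another was not tested. Irx6 had 2 counts, both in 1 C library.

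Irx1 had 1.26, 0.377 and 0.522 TPM in L, 0.354, 0.777 and 0.674 TPM in T, and 3.83, 2.59 and 2.29 TPM in C. Irx2 had 0.278, 0.353 and 0.607 TPM in L, 0.802, 1.40 and 1.41 TPM in T, and 2.42, 1.62 and 3.15 TPM in C. Both were highest in C with no overlap with the other segments. Irx1 was 4.55-fold lower in T than in C (log2 -2.18, SE 0.33, edgeR adjusted p = 9.77e-05) and 7.32-fold lower in L than in C (log2 -2.87, SE 0.38, edgeR adjusted p = 2.75e-05). Irx2 was 3.10-fold lower in T than in C (log2 -1.63, SE 0.30, edgeR adjusted p = 0.000432) and 4.72-fold lower in L than in C (log2 -2.24, SE 0.33, edgeR adjusted p = 7.9e-05). These sizes depended on the scale, although every call was kept under all 19 alternatives. Over them the log2 change of Irx1 spanned -2.36 to -1.27 for T over C and -3.58 to -1.20 for L over C, where -3.58 came from leaving out L replicate 1 and log2(TPM + 0.1) gave -1.99. That of Irx2 spanned -1.91 to -0.61 for T over C, with -0.93 on log2(TPM + 0.1) (limma adjusted p = 0.0447), and -2.67 to -1.25 for L over C. For L over T the changes were -0.69 for Irx1 and -0.61 for Irx2 on the log2 scale (edgeR adjusted p = 0.416 and 0.374). On TPM the sign for Irx1 was the other way, since the mean was higher in L (0.718) than in T (0.602) although its summed counts were 17 in L and 31 in T, and Irx2 passed on log2(TPM + 0.1) (limma adjusted p = 0.0244, range 0.0244 to 0.749 over 19 alternatives).

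**Figure D3:**
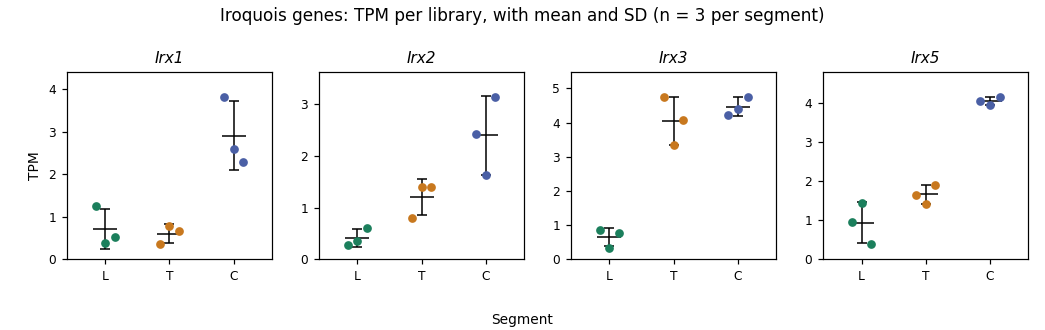
TPM in each library for Irx1, Irx2, Irx3 and Irx5 (points, with mean and SD of 3 libraries as bars), by segment L, T and C. Irx3 averages 0.648 TPM in L, 4.05 TPM in T and 4.47 TPM in C, while Irx5 averages 0.934, 1.66 and 4.06 TPM.

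Meox2 was higher in T than in both other segments. Meox2, a factor of the somites that also restrains the growth of vascular cells, had 8.84, 9.04 and 7.74 TPM in L, 18.7, 23.7 and 23.4 TPM in T, and 3.48, 4.11 and 3.59 TPM in C. The 3 segments did not overlap, with T above L and L above C. It was 5.40-fold higher in T than in C (log2 2.43, SE 0.12, edgeR adjusted p = 1.69e-09), 2.13-fold higher in L than in C (log2 1.09, SE 0.13, edgeR adjusted p = 1.36e-05) and 2.54-fold lower in L than in T (log2 -1.34, SE 0.11, edgeR adjusted p = 1.8e-06). Its paralog Meox1 had 1 count, in T. Epithelial markers were highest in T as well, at 31.2 to 41.0 TPM in L, 69.8 to 78.5 TPM in T and 25.5 to 29.0 TPM in C, although 7 of 10 stayed below 1 TPM in all libraries and Cldn4 was at 0. Their part in the level of Meox2 was not tested.

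The Prrx genes, which mark mesenchyme of limb and face and many fibroblasts, were abundant in all segments. Prrx2 had 183, 169 and 192 TPM in L, 282, 239 and 276 TPM in T, and 196, 190 and 187 TPM in C. T stood above both other segments, which overlapped. It was 1.28-fold higher in T than in C (log2 0.36, SE 0.08, edgeR adjusted p = 0.00216) and 1.44-fold lower in L than in T (log2 -0.53, SE 0.08, edgeR adjusted p = 0.000429). The change of L over C was -0.17 on the log2 scale (SE 0.08, edgeR adjusted p = 0.105). Prrx1 averaged 133 ± 13.0 TPM in L, 152 ± 17.2 TPM in T and 120 ± 5.34 TPM in C (SD, n = 3 each), and was 1.18-fold higher in T than in C (edgeR adjusted p = 0.0147). That call ended without T replicate 2 or C replicate 2 and with median centring of log2(TPM + 1) (adjusted p = 0.0689, 0.0597 and 0.0879, range 0.00172 to 0.0879 over 19 alternatives of edgeR, DESeq2 and limma). Prrx1 did not pass for L over T (log2 -0.18, edgeR adjusted p = 0.146), and passed without T replicate 1 (edgeR adjusted p = 0.0279, range 0.0279 to 0.439 over 19 alternatives).

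Cux1, a widely expressed CUT homeobox factor linked to cell proliferation, had 171, 182 and 160 TPM in L, 189, 188 and 183 TPM in T, and 145, 142 and 139 TPM in C. It was 1.27-fold higher in T than in C (log2 0.35, SE 0.06, edgeR adjusted p = 0.000181) and 1.18-fold higher in L than in C (log2 0.24, SE 0.06, edgeR adjusted p = 0.00328). With median centring of log2(TPM + 1) the L call ended (limma adjusted p = 0.102, range 0.000411 to 0.102 over 19 alternatives).

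Lmx1b and Zfhx3 were higher in L than in both other segments. Lmx1b, a LIM homeobox factor that sets dorsal limb identity, had 3.50, 2.79 and 2.68 TPM in L, 2.13, 1.69 and 1.25 TPM in T, and 1.20, 0.831 and 0.665 TPM in C. The 3 segments stood in the order L, T and C with no overlap. Lmx1b was 2.64-fold higher in L than in C (log2 1.40, SE 0.21, edgeR adjusted p = 8.23e-05), a call kept under all 19 alternatives. Relative to T it was 1.66-fold higher in L (log2 0.73, SE 0.20, edgeR adjusted p = 0.0206) and 1.59-fold higher in T than in C (log2 0.67, SE 0.22, edgeR adjusted p = 0.0197). The call of L over T ended without L replicate 2 or T replicate 3 (edgeR adjusted p = 0.0721 and 0.101) and on log2(TPM + 0.1) (limma adjusted p = 0.0764), and adjusted p spanned 0.00801 to 0.101 in 19 alternatives. The call of T over C ended without T replicate 2 or C replicate 3 (edgeR adjusted p = 0.114 and 0.0763) and with median centring (limma adjusted p = 0.118), and adjusted p spanned 0.0114 to 0.118. Its relative Lmx1a had 3 counts in L, 5 in T and 2 in C.

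Zfhx3, a large transcription factor of neurons and heart muscle that holds several homeodomains, averaged 8.68 ± 0.773 TPM in L, 6.56 ± 0.583 TPM in T and 6.30 ± 0.600 TPM in C (SD, n = 3 each). Every L library stood above the libraries of T and C, which overlapped. It was 1.27-fold higher in L than in C (log2 0.34, SE 0.09, edgeR adjusted p = 0.00903) and also higher in L than in T (log2 0.40, SE 0.09, edgeR adjusted p = 0.00913). The call against C ended with median centring (limma adjusted p = 0.0816, range 0.00167 to 0.0816 over 19 alternatives). The call against T was lost when T replicate 3 was left out (edgeR adjusted p = 0.0518) and in all 3 limma fits (adjusted p = 0.0652, 0.0682 and 0.0562), spanning 0.000694 to 0.0682 in 19 alternatives.

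Zfhx4, the relative of Zfhx3, had 7.16, 9.32 and 6.31 TPM in L, 5.96, 8.01 and 7.59 TPM in T, and 5.18, 4.64 and 5.25 TPM in C. It was 1.39-fold higher in L than in C (log2 0.47, SE 0.12, edgeR adjusted p = 0.00638) and 1.30-fold higher in T than in C (log2 0.38, SE 0.12, edgeR adjusted p = 0.0197). L and T overlapped, and L over T was not called (log2 0.09, edgeR adjusted p = 0.701). The call of T over C ended without T replicate 2, T replicate 3 or C replicate 2 (edgeR adjusted p = 0.0693, 0.0736 and 0.0756) and with median centring (limma adjusted p = 0.106), spanning 0.00196 to 0.106 in 19 alternatives.

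Six4 and Six5, which act with Eya coactivators in muscle and sensory organs, were low. Six5 had 7.37, 6.73 and 7.62 TPM in L, 7.35, 5.67 and 6.83 TPM in T, and 4.13, 4.56 and 5.37 TPM in C. C lay below the other segments, and the rise of L over C was 1.43-fold (log2 0.52, SE 0.14, edgeR adjusted p = 0.00919). T over C lay at the threshold, with a log2 change of 0.36 (SE 0.14, edgeR adjusted p = 0.0507) that passed under 8 of 19 alternatives, among them without L replicate 3, T replicate 2 or C replicate 3 (edgeR adjusted p = 0.046, 0.0171 and 0.0238, range 0.0166 to 0.155). Six4 averaged 4.56 ± 0.401 TPM in L, 4.66 ± 0.315 TPM in T and 3.79 ± 0.594 TPM in C (SD, n = 3 each). Its log2 change was 0.18 for T over C and 0.16 for L over C (SE 0.12 each, edgeR adjusted p = 0.244 and 0.289), and T over C passed without C replicate 1 (edgeR adjusted p = 0.0461, range 0.0461 to 0.581 over 19 alternatives). Six2, a factor of kidney and skull mesenchyme, was below the filter with 15 counts in L, 5 in T and 5 in C.

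The genes below the filter were read as summed counts. Of the 19 that had any count, 12 reached 10 counts over all libraries, and 7 of those 12 had their highest count per library size in C (Alx1, Dlx1, Dlx3, Lhx2, Lhx9, Emx2 and Shox2). For Lhx2 the margin was small, with 13 counts in T and 15 in C, and its C libraries held 0, 0.150 and 0.836 TPM. Alx1, which shapes the frontonasal skeleton, had 0 counts in L, 0 in T and 10 in C, so it was at least 2.72-fold lower in L than in C and at least 3.04-fold lower in T than in C. Emx2, a factor of the forebrain and of the limb girdle, had 7 counts in L, 8 in T and 43 in C. Shox2, a factor of the proximal limb, had 0, 1 and 10 counts in L, T and C. Lhx8, known from forebrain cholinergic neurons, ran the other way with 4 counts in L, 18 in T and 0 in C, at least 6.58-fold higher in T than in C. Its T libraries were uneven, at 0.081, 0.345 and 1.295 TPM, the last in T replicate 3. Alx4, a factor of skull and limb, had 31 counts in L, 6 in T and 18 in C.

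With no filter on low values these 19 genes could be fitted. In T against C edgeR called 5 lower (Alx1, Dlx1, Dlx3, Emx2 and Lhx9, adjusted p = 0.00266 to 0.0325) and Lhx8 higher (adjusted p = 0.00838), beside 40.1% of 17157 genes called in either direction. In L against C it called 4 lower (Alx1, Dlx1, Emx2 and Shox2, adjusted p = 0.0126 to 0.0376), beside 38.8% of all genes. In L against T it called Alx4 higher (adjusted p = 0.0210), beside 12.2% of all genes.

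**Figure D4:**
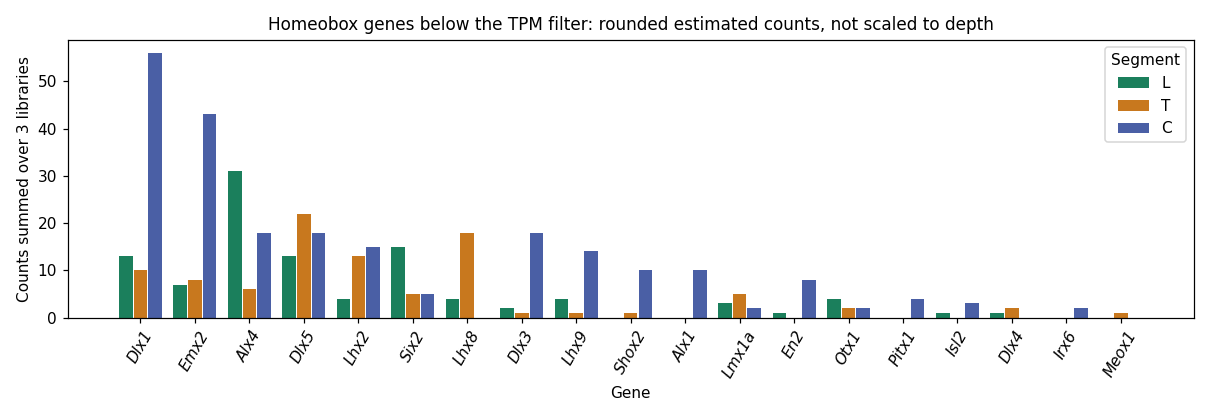
Rounded estimated counts summed over the 3 libraries of each segment L, T and C, for the 19 homeobox genes below the filter that had any count, not scaled to depth. Dlx1 (56 counts) and Emx2 (43 counts) stand highest in C, Alx4 (31 counts) in L and Lhx8 (18 counts) in T.

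Among 121 other homeobox genes outside the Hox clusters that were in the table, 31 were tested. In T against C 9 were higher and 13 lower (71.0% called, beside 51.0% of all genes), and in L against C 11 were higher and 10 lower (67.7%, beside 49.6%). In L against T 2 were higher and 4 lower, and the share called, 19.4%, was near the 16.1% of all genes. Their median log2 change was -0.21, 0.10 and -0.02 in that order. Gbx2 was among those that passed the filter through C alone, so the counts against C describe only the genes that passed. Gbx2, which acts at the midbrain and hindbrain boundary beside En1, averaged 0.727 ± 0.289 TPM in L, 0.697 ± 0.0793 TPM in T and 4.42 ± 0.524 TPM in C, and was 6.92-fold lower in T than in C (edgeR adjusted p = 1.03e-06). Pax6, a paired homeobox gene of neural progenitors and the eye, was 7.04-fold lower in L than in C and 2.23-fold lower in L than in T (edgeR adjusted p = 1.1e-07 and 0.00458). Tshz2 was 2.64-fold higher in T than in C and 2.12-fold lower in L than in T (edgeR adjusted p = 4.27e-08 and 2.61e-06), with means of 8.71 TPM in L, 18.9 TPM in T and 6.56 TPM in C. Vax2, a factor of the ventral eye, averaged 3.57 TPM in L, 0.959 TPM in T and 4.66 TPM in C, and was 5.28-fold lower in T than in C (edgeR adjusted p = 4.23e-05). On log2(TPM + 1), changes against C were smaller, at -1.67 for Gbx2 in T, -1.66 for Pax6 in L and -1.52 for Vax2 in T.

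Of 18 partner genes, 14 were tested. Lmo1 passed the filter through C alone, so here too the counts against C describe only the genes that passed. In T against C 8 were higher and 3 lower (78.6% called, beside 51.0% of all genes), and in L against C 7 were higher and 4 lower (78.6%, beside 49.6%). In L against T 0 were higher and 3 lower, and the share called, 21.4%, was near the 16.1% of all genes. Eya2, a coactivator of homeobox factors, averaged 187 ± 7.29 TPM in L, 230 ± 10.5 TPM in T and 38.7 ± 1.90 TPM in C (SD, n = 3 each), 5.46-fold higher in T and 4.51-fold higher in L than in C (edgeR adjusted p = 1.22e-11 and 6.68e-11). Eya1 was 5.19-fold lower in T than in C and 3.01-fold lower in L than in C, at 1.35 TPM in L, 0.894 TPM in T and 3.21 TPM in C. On log2(TPM + 1) the change of Eya1 was -1.16 for T over C and -0.86 for L over C. On log2(TPM + 0.1) it was -1.76 for T over C, beside -2.38 by edgeR on counts, so the folds above are larger than the TPM means give. Lmo4, a LIM-only protein that competes for the cofactor of LIM homeobox factors, averaged 138 ± 9.69 TPM in L, 210 ± 1.84 TPM in T and 80.7 ± 2.99 TPM in C, 2.33-fold higher in T than in C (edgeR adjusted p = 2.81e-09) and 1.49-fold lower in L than in T (edgeR adjusted p = 2.14e-05).

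**Figure D5:**
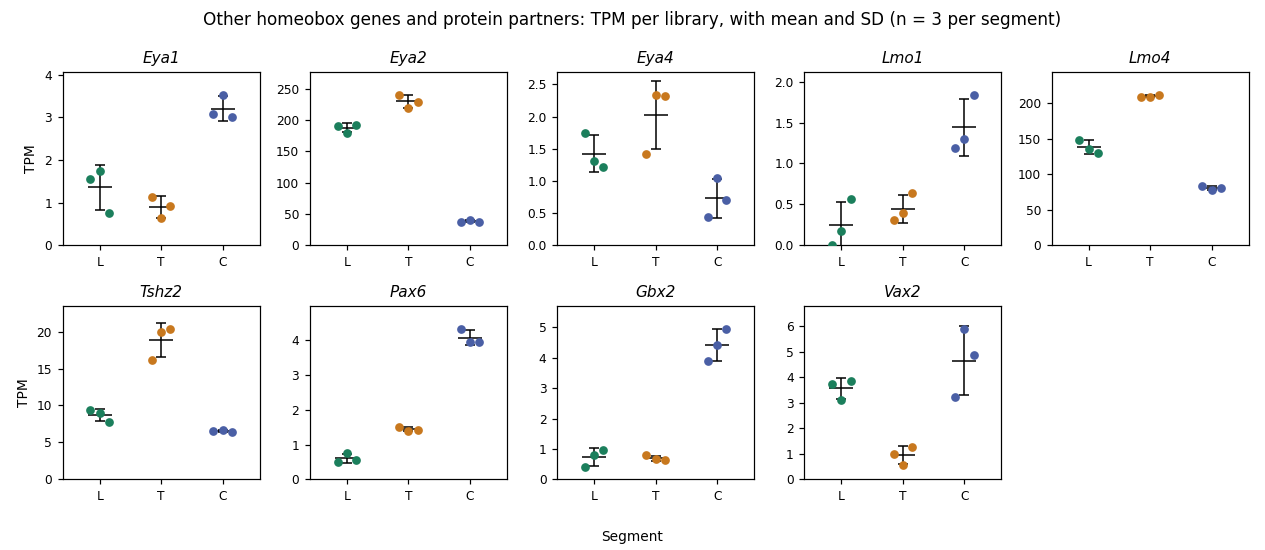
TPM in each library for 4 other homeobox genes (Tshz2, Pax6, Gbx2, Vax2) and 5 partner genes (Eya1, Eya2, Eya4, Lmo1, Lmo4), by segment L, T and C (points, with mean and SD of 3 libraries as bars). Eya2 averages 187 TPM in L, 230 TPM in T and 38.7 TPM in C, and Gbx2 is highest in C at 4.42 TPM.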

How the data were processed

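Total RNA was sequenced after a stranded kit, per the labels' protocols, and segments and replicate numbers come from the sample titles. For L replicate 3 the title was used, because its description points to a column of L replicate 2. The authors deposited 1 table holding a TPM value and an estimated count for each gene in each library. Tools named in the submitters' processing notes, without their roles, are HISAT2 2.2.1, Trimmomatic 0.39, DESeq2 1.32.0 and StringTie 2.1.4, beside a human and a mouse genome build. Annotation and strand setting were not stated, so sense and antisense reads cannot be told apart.

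Deposited estimated counts, 92.7% of them exactly whole, were rounded. Of 22013 entries, the 12553 with TPM of 1 or more in 3 or more of 9 libraries were tested. An edgeR 4.0.16 quasi-likelihood model (R 4.3.3) was fitted to all 9 libraries with TMM scaling and segment as its term. P-values are two-sided, adjusted by Benjamini and Hochberg over all tested genes, and called under 0.05. Levels are given as deposited TPM. Where a segment had 0 counts, a fold is a bound set by 3 counts over that segment. With 1 to 3 counts it is a ratio with an exact 95% interval, and both cover counting error only. The procedure was tested on simulated data.

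Members, lists and naming rule were chosen with earlier results of these data known. Per contrast and direction, the rule took up to 6 called members, 3 other homeobox genes and 2 partner genes, those with the largest change whose higher segment averaged 1 TPM or more. Remaining members are also given. A gene outside the member list that the rule took is not reported here. Alternatives were DESeq2 1.42.0, other scalings and filters, limma 3.58.1 on log2(TPM + 1) and log2(TPM + 0.1), pairwise fits, a replicate block and leaving out each library.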

Additional observations from a re-analysis of the deposited data

How the results depend on the processing

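Of 42 calls of the homeobox genes over the 3 contrasts, 33 were kept under all 19 alternatives and 0 changed sign, and the other 9 are named with their values above. With no filter, 16 other homeobox genes were lower in L than in C and 7 lower in L than in T. Of all genes, that setting called 38.8% in L against C and 12.2% in L against T, in either direction. On log2(TPM + 1), 1 other homeobox gene was higher in L than in T. On log2(TPM + 0.1), that count was 1 and 2 members were higher in L than in T. With median centring, 3 members were higher in T than in C and 4 other homeobox genes higher in L than in C. The cause was not tested. For the limma fits, left-out libraries and replicate block, the share of all genes called is not given here. Those counts therefore cannot show whether these genes moved apart from all genes. The log2(TPM + 1) scale moved the median of all genes by 0.13 for T over C and 0.10 for L over C. After the centring these medians were slightly negative, at -0.03 and -0.04. Irx1, L over T and not called, turned positive in the limma fits, at 0.0771 with a pseudocount of 1, 0.13 with 0.1 and 0.0893 after centring.

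Leaving out 1 library at a time gave 1 to 4 members higher in L than in T (1 without T replicate 3), 1 to 2 other homeobox genes higher in L than in T (1 without L replicate 1), and 7 to 12 other homeobox genes higher in L than in C (7 without L replicate 1, C replicate 1 or C replicate 2). Nkx6-1, L over T and not called, lay between -0.0520 and 0.0082 on the log2 scale, and Zfhx4, also L over T and not called, between -0.0586 and 0.200.

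Deviations of same-numbered libraries from their segment means correlated between -0.147 and 0.292 over 9 pairs. Those of differently numbered libraries spanned -0.378 to 0.381. With 3 libraries per segment, these values cannot settle whether replicate numbers pair the libraries. With the replicate number as a block, T against C gave 7 members higher and 11 lower, since Six5 passed (edgeR adjusted p = 0.045). L against C gave 6 higher and 12 lower, and L against T gave 4 higher and 3 lower. Depth limits the genes below the filter, of which 12 of 19 with any count reached 10 counts over all libraries.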
